A study of Mus musculus with 6 samples.

Results

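Rnase4, Ang, Ang4 and Rnase1 encode secreted ribonucleases of the RNase A superfamily, and Rnh1 encodes the inhibitor that binds such enzymes inside cells. These 5 genes, of 19057 with a symbol on the array, were followed in colon tumors by taking each probe whose symbol in the platform annotation equals one of them. That gave 6 of the 45281 probes, namely 2 for Rnase4, 2 for Ang, 1 for Ang4 and 1 for Rnase1. No probe carries the symbol Rnh1 in the annotation used here, so the inhibitor has no value, and the ribonucleases could not be set against it. Rnase4 was chosen by its intensities in the very contrast described here, so its differences are a description and have no test. The tumors came from male mice of a mixed 129S6/SvEvTac and CF1 background, all given the colon-selective carcinogen azoxymethane (AOM) and all labelled as 7 months of age. In the 3 Chrm3-/- mice the gene of the M3 muscarinic receptor was deleted in the whole animal, and the 3 WT mice carried it. RNA of each tumor was read on 1 Illumina MouseWG-6 BeadChip array, and each array is of a different mouse.

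Ribonucleases of this superfamily are small, stable enzymes that cells release and that cleave RNA after pyrimidines. Angiogenin, the product of Ang, is a weak ribonuclease named for its ability to induce blood vessels, and under stress it cleaves transfer RNAs. Rnase4 prefers to cleave after uridine and is the most conserved member of the superfamily. Ang4 is a mouse angiogenin secreted by Paneth and goblet cells of the gut and kills microbes, and Rnase1 is the ribonuclease first known from pancreas. Rnase4 and Ang are unusual in that they share promoters and untranslated leading exons, which are spliced to a separate coding exon for each protein.

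The shared arrangement is visible in the RefSeq annotation of GRCm38.p6. On chromosome 14, Rnase4 spans 51091077 to 51106151 and Ang spans 51091077 to 51102009, so that both begin at the same base and the whole of Ang lies inside the span of Rnase4. Rnase1 lies 53.9 kb from that base, at 51145002 to 51146767, and Ang4 lies 672.8 kb from it, at 51763892 to 51773590. Rnh1 is on chromosome 7, at 141160326 to 141172851. The nearest annotated gene before the shared start is n-TPtgg5, a transfer RNA gene at 51090647 to 51090718, which ends 358 bases before it. The 250 bases upstream of each annotated start (RefSeq, GRCm38.p6, read 5′ to 3′ on the strand of the gene) are shown because the levels of Rnase4 and Ang are compared with each other and with Ang4. Capitals mark any match, on either strand, to short motifs common before start sites. The TATA box was searched as TATAAA. The GC box was searched as GGGCGG and overlaps no other motif searched. The CCAAT box was searched as its own letters.
Rnase4 and Ang, shared start, chr14:51090827-51091076, plus strand: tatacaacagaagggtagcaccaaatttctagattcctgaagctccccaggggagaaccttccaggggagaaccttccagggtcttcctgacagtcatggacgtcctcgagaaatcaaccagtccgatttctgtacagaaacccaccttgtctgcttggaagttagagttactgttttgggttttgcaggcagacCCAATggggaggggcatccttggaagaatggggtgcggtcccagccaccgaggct
Rnase4, second start, chr14:51095750-51095999, plus strand: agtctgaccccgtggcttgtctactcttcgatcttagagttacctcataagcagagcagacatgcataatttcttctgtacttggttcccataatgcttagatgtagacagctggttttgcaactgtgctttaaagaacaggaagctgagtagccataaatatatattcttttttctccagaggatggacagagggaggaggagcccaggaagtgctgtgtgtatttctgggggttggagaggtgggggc
Ang4, chr14:51773591-51773840, minus strand: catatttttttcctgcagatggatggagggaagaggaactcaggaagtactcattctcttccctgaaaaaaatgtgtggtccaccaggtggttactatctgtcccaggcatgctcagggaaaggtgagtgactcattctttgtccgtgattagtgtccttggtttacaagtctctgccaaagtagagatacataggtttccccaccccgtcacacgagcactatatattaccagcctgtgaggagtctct
The window of the shared start is listed under both genes with identical letters and holds 1 CCAAT, a motif found in 33.9% of the 32851 windows in the table. The window of the second Rnase4 start and that of Ang4 hold none of the 3 motifs, and that of Rnase1 holds 1 match to the GC box on the other strand, a motif found in 32.7% of windows. TATAAA, found in 12.4% of windows, is in none of these. The table does not say which of the annotated Rnase4 transcripts begins at which start.

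The deposited intensities are on a linear scale, are not background-subtracted and hold the same set of values on each array, so a value gives the rank of a probe within its array. On each array 46.1% of probes read under 2, which is taken as not above background. Tests used log2(value + 50), where the offset damps fluctuation near background at the price of understating the changes of dim probes. The 22641 probes at or above the median mean level were tested. Over those, limma called 28 probes (0.124%) at an adjusted p of 0.05, and 1091 had an unadjusted p under it. In 1177 probes (5.2%) the lowest Chrm3-/- value exceeded the highest WT value. Correlations between arrays on the log2 scale ran from 0.982 to 0.986 within WT and from 0.916 to 0.973 within Chrm3-/-. On the first principal component, which held 53% of the variance, Chrm3-/- replicate 1 scored 87.8 and the other arrays scored from -45.5 to -6.15, so that this array differed most from the rest. The single Chrm3 probe read 9.06, 1.80 and 1.94 in WT and 25.1, 32.1 and 21.9 in Chrm3-/- tumors, and it does not check the genotype, because no source used here places the probe inside or outside the deleted part. All 8 epithelial markers had a tested probe, with summed intensities of 25812 to 32078 in WT and 28656 to 35652 in Chrm3-/- tumors, although the probe of Epcam was dim, at 8.67 to 12.1 and 1.06 to 2.03. In whole tumors, fewer cells of a type and less RNA per cell cannot be told apart.

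Both Rnase4 probes were higher in each Chrm3-/- tumor than in any WT tumor, but by very different amounts. Probe ILMN_1235657 read 1452, 2990 and 1862 in WT replicates 1, 2 and 3, and 4220, 3362 and 4452 in Chrm3-/- replicates 1, 2 and 3. The probe lay above 96.2 to 98.3% of probes on the WT arrays and 98.5 to 98.9% on the Chrm3-/- arrays, a place that depends on how well a probe binds and does not give the level of the transcript. The groups did not overlap, although WT replicate 2 came close to Chrm3-/- replicate 2. Mean intensity went from 2101 ± 797 (SD, n = 3) for WT to 4011 ± 574 (SD, n = 3) for Chrm3-/- tumors. On the scale of value + 50 this was 1.96-fold, with a log2 fold change of 0.97 (SE 0.27).

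Probe ILMN_2644504, which the annotation ties to the other RefSeq transcript of Rnase4, read 16.9, 138 and 58.7 in WT and 4328, 624 and 15740 in Chrm3-/- tumors. Every Chrm3-/- tumor lay above every WT tumor, and the lowest of them, replicate 2, still read several times the highest WT value. The means were 71.2 ± 61.5 (SD, n = 3) and 6898 ± 7879 (SD, n = 3). The log2 fold change of this Rnase4 probe was 5.02 (SE 1.07), or 32.4-fold on the scale of value + 50, which placed it 2nd from the top among the 22641 tested probes, whereas the other Rnase4 probe was 159th. Without Chrm3-/- replicate 3 the log2 fold change of ILMN_2644504 was 3.95, and without Chrm3-/- replicate 2 it was 6.23. Its place within the array moved accordingly, from above 62.9 to 80.1% of probes in WT to above 92.0 to 99.8% in Chrm3-/- tumors.

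**Figure D1:**
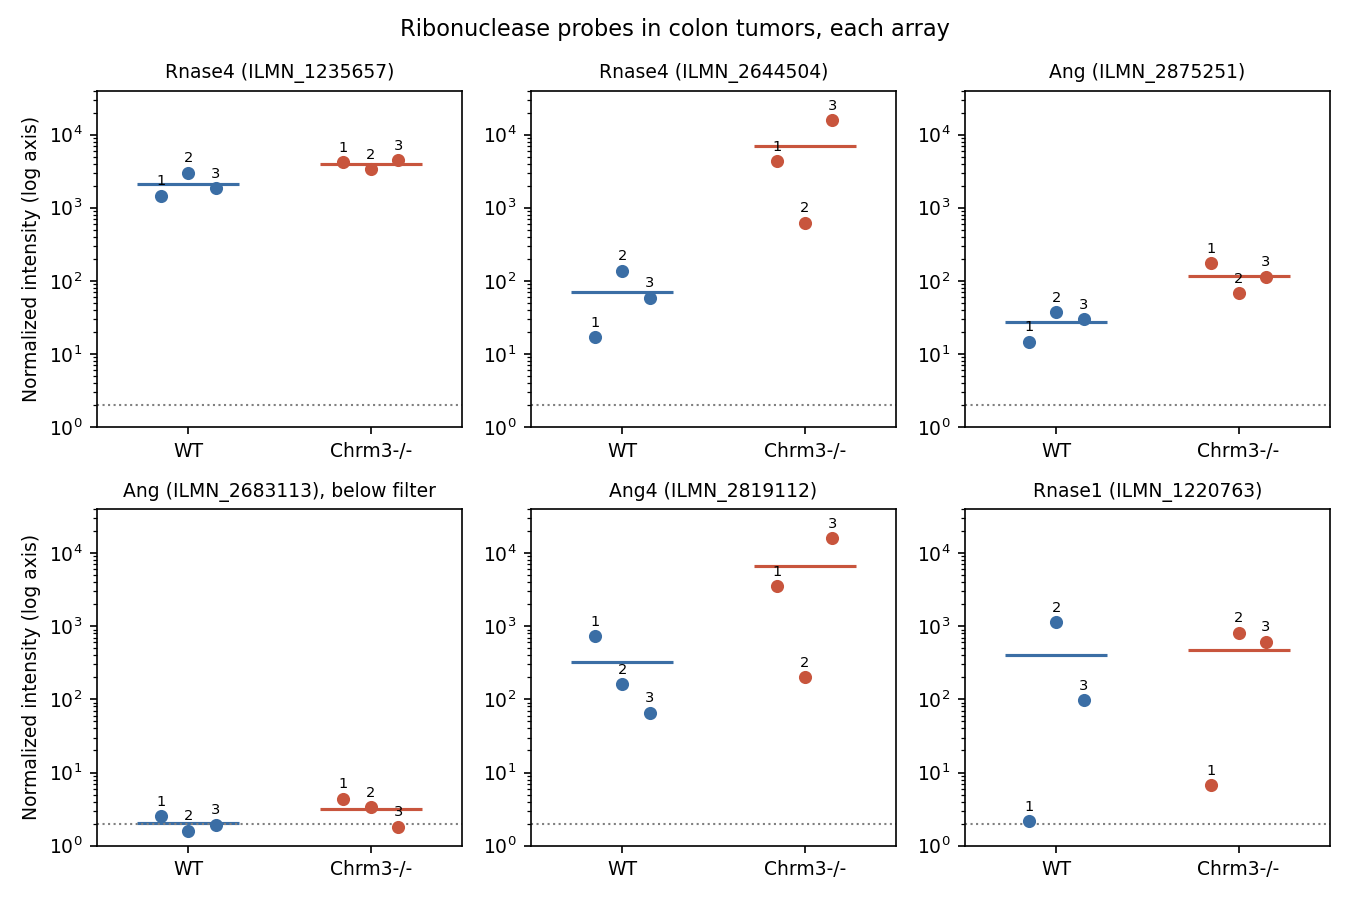
Normalized intensity (log axis) of the 6 ribonuclease probes on each array, WT in blue and Chrm3-/- in red, with the replicate number at each point, a bar at the mean and a dotted line at 2. The groups do not overlap for either Rnase4 probe or for Ang ILMN_2875251, and they overlap for the other 3 probes.

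The pair of Rnase4 probes did not keep a constant relation. The log2(value + 50) of ILMN_2644504 minus that of ILMN_1235657 was -4.49, -4.02 and -4.14 in WT and 0.04, -2.34 and 1.81 in Chrm3-/- tumors. On this scale the difference was -4.21 ± 0.25 (SD, n = 3) in WT tumors. In Chrm3-/- tumors it was higher on every array and spread widely, at -0.16 ± 2.08 (SD, n = 3). The relation of the probes thus moved by 4.05 between genotypes on this scale. Both the small WT spread and this shift depend on the offset of 50, because ILMN_2644504 read only 16.9, 138 and 58.7 in WT. With no offset the log2 fold changes were 6.08 for ILMN_2644504 and 0.99 for ILMN_1235657. The order of the arrays within each genotype was nevertheless shared by both probes, with replicate 2 highest and replicate 1 lowest in WT, and replicate 3 highest and replicate 2 lowest in Chrm3-/- tumors. No source used here places the probes on the transcripts, so which exons they read, and whether either can bind a related gene, was not tested.

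Ang also had a probe with no overlap between the genotypes. This probe, ILMN_2875251, read 14.8, 37.2 and 30.1 in WT and 173, 68.1 and 114 in Chrm3-/- tumors. All Chrm3-/- values lay above all WT values. Within WT the order of the arrays was that of the Rnase4 probes, an order that Rnase1 also had. Within Chrm3-/- tumors the order differed, since Ang was highest on replicate 1 and the Rnase4 probes, like Ang4, were highest on replicate 3. WT tumors averaged 27.4 ± 11.5 (SD, n = 3) and Chrm3-/- tumors 118 ± 52.6 (SD, n = 3). The log2 fold change of Ang was 1.08 (SE 0.26, 95% confidence interval 0.46 to 1.71), the 128th highest of all tested probes, and it did not pass the test (limma, unadjusted p = 0.00479, adjusted p = 0.535). Since the offset of 50 exceeds every WT value of Ang, the log2 fold change depended on it. It was 1.59 with an offset of 16 and 2.11 with none, where the Rnase4 probe ILMN_1235657 gave 0.98 and 0.99. The other Rnase4 probe, ILMN_2644504, also moved with the offset, from 5.02 to 5.61 and 6.08. Under array weights the adjusted p of Ang was 0.0254, the lowest of a range that reached 1 over the alternatives. The methods' t-test gave Ang an adjusted p of 0.783.

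The other Ang probe, ILMN_2683113, was at background. It read 2.52, 1.59 and 1.94 in WT and 4.40, 3.33 and 1.82 in Chrm3-/- tumors, and it did not reach the level needed for testing. Its values overlap between genotypes and say nothing about Ang beyond that this probe was not above background on 2 WT arrays and 1 Chrm3-/- array. The file ties both Ang probes to the same RefSeq transcript, and why 1 of them reads higher was not tested.

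Ang4 had the widest spread of the angiogenins. Its only probe read 734, 162 and 65.8 in WT and 3542, 202 and 16001 in Chrm3-/- tumors. Chrm3-/- replicates 1 and 3 stood far above WT, whereas replicate 2 lay between WT replicates 1 and 2, so the groups overlap. The means were 321 ± 361 (SD, n = 3) and 6582 ± 8327 (SD, n = 3). The log2 fold change of Ang4 was 3.19 (SE 1.48, 95% confidence interval -0.33 to 6.70), the 6th highest of all tested probes, and did not pass the test (limma, adjusted p = 0.991). Of the tested probes, 99.8% varied less than Ang4 among Chrm3-/- arrays and 99.7% varied less among WT arrays. Without Chrm3-/- replicate 2 the log2 fold change of Ang4 was 4.82, and without replicate 3 it was 1.83.

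Rnase1 varied widely within both genotypes. Its probe read 2.15, 1130 and 97.0 in WT and 6.65, 814 and 611 in Chrm3-/- tumors. Replicate 1 of either genotype was near background and the other arrays were well above it, so the groups overlap throughout. The log2 fold change of Rnase1 was 0.61 (SE 1.40, 95% confidence interval -2.70 to 3.93, limma adjusted p = 0.991). Among WT arrays 99.97% of the tested probes varied less. The sign turned when WT replicate 1 was left out (-0.39) or Chrm3-/- replicate 2 was left out (-0.11), and the interval allows a rise or a fall of several-fold.

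Of the 5 tested ribonuclease probes none was called by limma, beside 0.124% of all tested probes, and 3 of 5 had all Chrm3-/- arrays above all WT arrays, beside 5.2%. These 3 are the Rnase4 probes, which were chosen for it, and Ang, which shares their start. All 5 fold changes were above 0, but the Rnase4 probes were chosen by this contrast, so their sign is no result. That of Rnase1 fell below 0 when WT replicate 1 or Chrm3-/- replicate 2 was left out. The median over all tested probes was 0.01. Without Chrm3-/- replicate 1, the array that stood apart, the log2 fold changes were 0.93 and 4.88 for the Rnase4 probes, 0.86 for Ang, 2.91 for Ang4 and 1.86 for Rnase1.

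**Figure D2:**
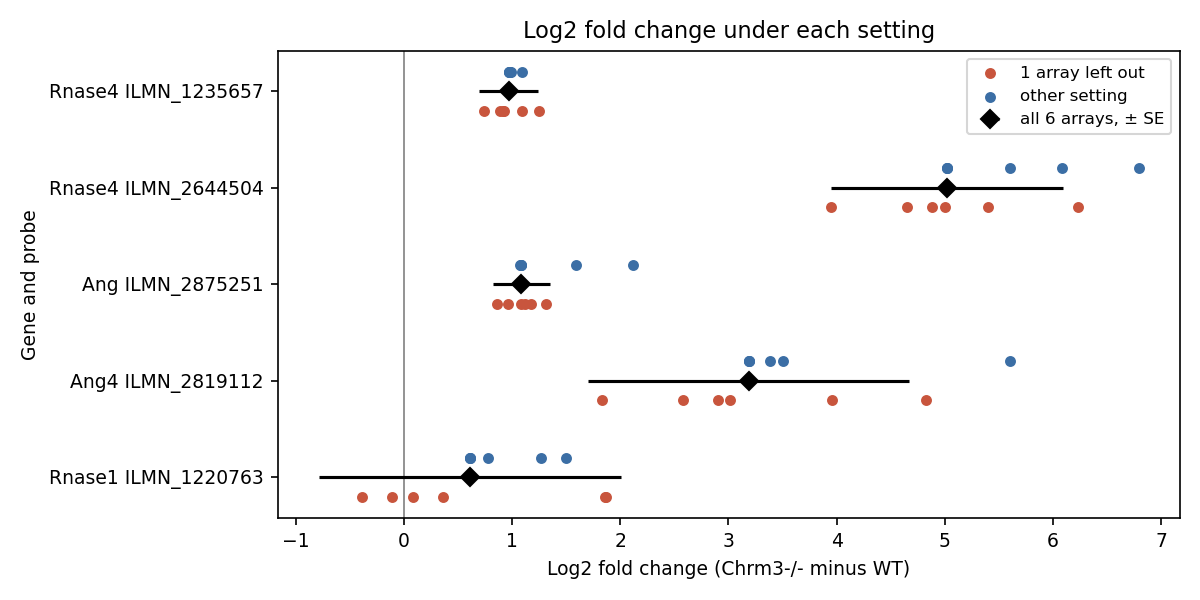
Log2 fold change, Chrm3-/- minus WT, of the 5 tested ribonuclease probes with all 6 arrays (black diamond, bar of 1 SE), with 1 array left out (red) and under the other settings (blue). Rnase4 ILMN_1235657 stays between 0.74 and 1.25 and Ang between 0.86 and 2.11, Ang4 spans 1.83 to 5.60, and Rnase1 lies on both sides of 0.

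The arrays on which the ribonucleases were high were compared across genes. Over the 6 arrays, Pearson's r of log2(value + 50) was 0.90 between the Rnase4 probes, 0.90 and 0.92 between either of them and Ang, 0.59 and 0.85 between either and Ang4, and 0.45 and 0.19 between either and Rnase1. Ang and Ang4 had an r of 0.70, and Ang4 and Rnase1 had -0.13. These values describe 6 arrays that fall in 2 groups and include the contrast by which Rnase4 was selected. Chrm3-/- replicate 2 was the lowest Chrm3-/- array for both Rnase4 probes, Ang and Ang4, and the highest for Rnase1.

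Genes of other functions had array patterns closer to Rnase4 than the other ribonucleases did. For ILMN_1235657 of Rnase4, 30 of the other 22640 tested probes had an r of at least 0.95, led by Nme7, Pih1d1, Svs6, Rbl1 and Snx7 with r of 0.98 each. Of these, the probe of Svs6 was dim, at most 12.8 on any array, and so carried little signal. Nme7 read 11754, 14060 and 12530 in WT and 14982, 14817 and 16322 in Chrm3-/- tumors, a far narrower range than that of Rnase4. For ILMN_2644504, 38 probes reached 0.95, led by Pcna, the sliding clamp of DNA replication, at 0.99. Pcna read 108, 124 and 108 in WT and 164, 136 and 178 in Chrm3-/- tumors. It was followed by Kcnj6, Pnp2, Sh3bp5 and Ttf1, whose probes were dim, at most 22.1 on any array, and so carried little signal. By this measure the Ang probe was 109th for the first Rnase4 probe and 89th for the second.

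The tested genes around Rnase4 had smaller fold changes than Rnase4 and Ang. Within 250 kb the annotation lists 35 genes, of which 20 are protein coding, 7 are transfer RNA genes and 19 have a probe, Rnase4, Ang and Rnase1 included. None of the tested neighbours passed the test (limma), beside 0.124% of all tested probes. Osgep, a transfer RNA modification enzyme, had a log2 fold change of -0.09 (SE 0.16), and Apex1, a DNA repair endonuclease, had -0.41 (SE 0.34). The 2 probes of Pip4p1, a lipid phosphatase, gave -0.54 (SE 0.32) and 0.22 (SE 0.15), and Pnp2, a purine nucleoside phosphorylase, gave 0.12 (SE 0.07) from a dim probe. In the second of the Pip4p1 probes all Chrm3-/- values were above all WT values, as in 5.2% of all tested probes. The same order in Pnp2 carries no weight, because its WT values lay below the filter and only its Chrm3-/- values brought it past. Rnase6, a ribonuclease of the same superfamily known from immune cells, lies 32.8 kb away and read 52.1, 66.6 and 73.0 in WT and 501, 8.25 and 40.5 in Chrm3-/- tumors. It was high on Chrm3-/- replicate 1 alone and gave a log2 fold change of 0.33 (SE 0.77).

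**Figure D3:**
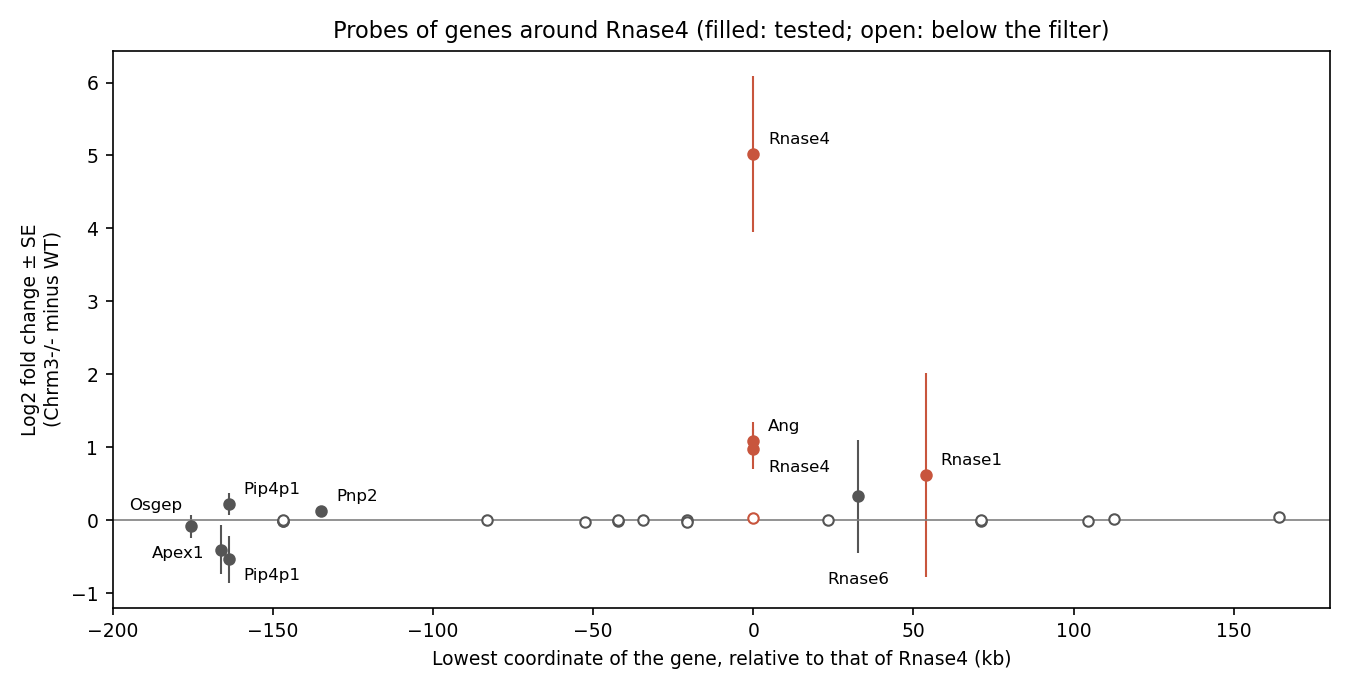
Log2 fold change ± SE, Chrm3-/- minus WT, of probes of genes within 250 kb of Rnase4, against the lowest annotated coordinate of each gene relative to that of Rnase4 (kb), with tested probes filled, probes below the filter open and Rnase4, Ang and Rnase1 in red. The tested neighbours lie between -0.54 and 0.33, below the tested probes of Rnase4 (0.97 and 5.02) and Ang (1.08).

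Most of the rest of the superfamily read near background. Of 22 further members listed, 15 had a probe, 19 probes in all, and 16 of those probes did not pass the filter and read between 1.02 and 9.31 on every array. They include Ang2, Ang3 and Ang5, which are other mouse angiogenins, and the RNases named 9 to 13. Only Rnase6 and Ear3, an eosinophil-associated ribonuclease, were tested. The brighter Ear3 probe read 87.3, 45.4 and 71.7 in WT and 40.4, 6.65 and 29.1 in Chrm3-/- tumors, without overlap. It had a log2 fold change of -0.66 (SE 0.23), opposite in sign to Rnase4 and Ang, and did not pass (limma, adjusted p = 0.933). A dim Ear3 probe gave 0.31 (SE 0.20). That value carries no weight, because the dim probe read under 2 on every WT array and only its Chrm3-/- values brought it past the filter. The Ear genes are close copies of each other, so which of them a probe reads is uncertain.

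Enzymes outside the superfamily that cleave RNA were also examined. Of 9 listed, 7 were tested, and the median log2 fold change was -0.06. None passed in either direction, beside 0.124% of all tested probes, a share at which so short a list would rarely hold a call. Ern2, a stress sensor of mucus-secreting cells with ribonuclease activity, read 281, 523 and 532 in WT and 3354, 318 and 1369 in Chrm3-/- tumors. Like Ang4 it was high on Chrm3-/- replicates 1 and 3 and overlapped WT on replicate 2, and it gave 1.34 (SE 0.75). Rnaset2b and Rnaset2a, lysosomal ribonucleases, gave -0.22 (SE 0.17) and -0.17 (SE 0.10).

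Genes of proteins on which angiogenin acts, or that mark the transfer RNAs it cleaves, formed another short list. All 5 listed genes were tested, 1 was above WT and 4 were below, with a median of -0.07. None passed, beside 0.124% of all tested probes. Plxnb2, reported as a receptor of angiogenin, read 503, 491 and 345 in WT and 356, 292 and 281 in Chrm3-/- tumors, and gave -0.45 (SE 0.20). Egfr, the epidermal growth factor receptor, which human angiogenin has been reported to bind, read 337, 369 and 353 in WT and 240, 174 and 292 in Chrm3-/- tumors by its brightest probe. All Chrm3-/- values of that Egfr probe were lower, with a log2 fold change of -0.52 (SE 0.20, limma adjusted p = 0.991). The other tested Egfr probes overlapped between the genotypes and gave -0.485 (SE 0.22), -0.30 (SE 0.19) and -0.32 (SE 0.26). Trdmt1, a transfer RNA methyltransferase, gave 0.23 (SE 0.17).

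Genes of crypt base and antimicrobial secretion were examined because Ang4 is secreted with them. Of 11 listed, 9 were tested, 3 were above WT and 6 below, and the median was -0.20. None passed, beside 0.124% of all tested probes. Mptx1, a mucosal pentraxin, read 7.38, 3.33 and 31.7 in WT and 6611, 12.2 and 10202 in Chrm3-/- tumors. By this probe, its brightest, Mptx1 had the array pattern of Ang4, high on replicates 1 and 3 and within the WT range on replicate 2. The log2 fold change was 4.68 (SE 1.81, limma adjusted p = 0.991). Another, dim Mptx1 probe read at most 17.3 on any array and gave 0.06 (SE 0.13). Pla2g2a, a secreted phospholipase that kills bacteria, read lower than WT on 2 of the Chrm3-/- arrays, with 21311, 23356 and 23926 in WT and 2786, 1013 and 23008 in Chrm3-/- tumors. Reg3b, an antimicrobial lectin, read 1242, 2904 and 1276 in WT and 130, 510 and 836 in Chrm3-/- tumors, without overlap and lower, with -1.94 (SE 0.62, limma adjusted p = 0.882). A dim Reg3b probe overlapped and gave -0.18 (SE 0.12). The values of these secreted genes thus lay on both sides of WT.

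**Figure D4:**
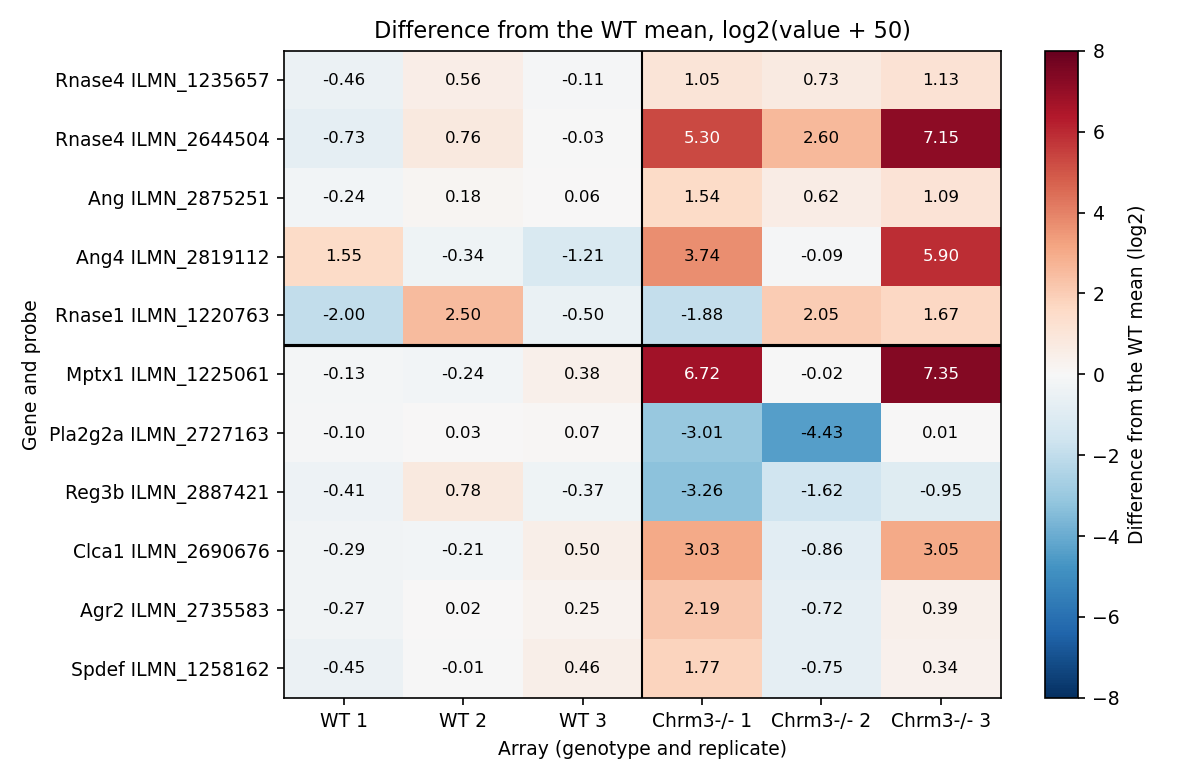
Difference of each array from the WT mean, in log2(value + 50), for the 5 tested ribonuclease probes (above the line) and the 3 genes of largest difference in the crypt list and in the goblet cell list (below it), with red for higher and blue for lower. Ang4 and Mptx1 are high on Chrm3-/- replicates 1 and 3 and near the WT mean on replicate 2, whereas Rnase4 is above the WT mean on all Chrm3-/- arrays.

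Markers of other cells also differed between the arrays. The median difference from the WT mean over the 6 tested of 8 goblet cell markers was 1.33, -0.81 and 0.30 on Chrm3-/- replicates 1, 2 and 3, and the sum of their intensities ran from 25962 to 41005 in WT and from 17674 to 59630 in Chrm3-/- tumors. Over the 7 markers of absorptive colonocytes it was 2.39, -1.20 and 0.21, with sums of 4618 to 12278 and 2683 to 50871. Over the 8 smooth muscle markers it was 2.47, -0.23 and 0.90, with sums of 7814 to 12567 and 9630 to 37885. Over the 4 tested of 5 mast cell markers it was -0.58, -0.47 and 2.36, with sums of 556 to 2988 and 585 to 5977. Replicate 2, on which Rnase4, Ang and Ang4 were lowest among Chrm3-/- tumors, was also the lowest of them in the markers of goblet cells, colonocytes, smooth muscle, epithelium, macrophages and B and plasma cells and in the crypt list, but not in those of endothelium, fibroblasts, neutrophils or mast cells, and the part of these cells in the ribonuclease values was not tested. Over the 7 tested of 8 endothelial markers the median was 0.08, 0.10 and -0.30, with sums of 989 to 1110 and 740 to 1187, where Ang was higher on all 3 arrays. Over the 6 fibroblast markers it was -0.70, -0.51 and -0.72, with sums of 12229 to 15765 and 8941 to 9585, and 5 of the 6 were below WT without overlap. Over all 22641 tested probes, 1246 were below WT without overlap. The median was 0.06, -0.64 and 0.03 over the 6 tested of 7 macrophage markers, and 2.24, -1.46 and -0.86 over the 3 tested of 5 markers of B and plasma cells. Over the 4 neutrophil markers it was -2.04, -0.94 and -0.58, with sums of 629 to 2824 in WT and 26.3 to 682 in Chrm3-/- tumors. None of the markers on any of these lists was at 0 in the files, where the lowest possible values lie just above 1. Over all 86 tested genes of the lists limma called none, 14 had an unadjusted p under 0.05, and the methods' t-test gave 7 before adjustment and 0 after it. Over all 22641 tested probes, limma gave 1091 before adjustment and 28 after it, and the methods' t-test gave 1238 before adjustment and 9 after it. The lists were chosen with earlier results of these data known, so the counts on them are a description only.

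The study measured Rnase4 by quantitative PCR, and its primers are shown because related genes lie nearby.
Rnase4 forward primer: ggagcctctagcttcacacc
Rnase4 reverse primer: agagcagaagcaaggactgag
In the 32851 windows from 250 bases before to 50 after each annotated start, the forward primer had 4 matches with up to 3 mismatches. It matched Ang5 and Ang6 with 1 mismatch, C20T, from base -4 to base 15 relative to the start, and Ang4 with 2 mismatches, C5T and C15G, from base -8 to base 11 (positions are counted from 1 at the 5′ end of the primer, with the primer base first). The site in Ang4, with the mismatches in capitals, is shown because Ang4 was also high in some Chrm3-/- tumors.
Ang4 site: ggagTctctagcttGacacc
The remaining match of the forward primer was to Gm42322, with 3 mismatches. None of its matches was in a window of Rnase4 itself, so these windows do not show where the primers bind their own gene. The reverse primer had no such match in these windows, and transcripts beyond the windows were not searched. The matches are to letters only, and what the primers amplify was not tested.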

How the data were processed

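RNA of 6 colon tumors was measured on Illumina BeadChip arrays, 3 of WT and 3 of Chrm3-/- mice. Cubic spline normalization was applied by the authors to the probe intensities, with no subtraction of background, and the deposited intensity values are linear. The 6 columns of another table, of raw signals, could be tied to no sample by name and were left out. Array number limits the precision, and each p-value rests on the spread between 3 mice per genotype.

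Intensities were taken as log2(value + 50). The 22641 of 45281 probes with a mean log2 at or above the median (5.77) were fitted in limma 3.58.1 (R 4.3.3) by lmFit and eBayes with a trend, genotype as the only term, and 4 residual and 2.87 prior degrees of freedom. Tests were two-sided, adjusted by Benjamini and Hochberg over all tested probes, with a threshold of 0.05. The step was tested on simulated data. Tables and plots were made in Python 3.11.15 with pandas 2.3.3, numpy 2.4.6 and matplotlib 3.10.9.

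The genes and lists were chosen with earlier results of these data known. Named are all probes of the 5 genes, every tested member of the superfamily and of the genes within 250 kb, at most 3 genes of each other list by size of difference (the brightest tested probe per gene), and the 5 probes most like each Rnase4 probe. Epcam and Chrm3 are named outside this rule as checks. Alternatives were other offsets, no filter, a replicate block, no trend, array weights, each array left out and the methods' t-test.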

Additional observations from a re-analysis of the deposited data

How the results depend on the processing

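The number of probes called by limma was 28 with all choices as described, 12 with no filter, 44 with no offset and 252 with arrays weighted by quality, where the estimate of the weights did not converge. The weights were 0.256, 0.386 and 6.12 for Chrm3-/- replicates 1, 2 and 3. Leaving out 1 array gave 4 to 31 calls. It gave 6, 5 and 4 without WT replicates 1, 2 and 3, and 4 without Chrm3-/- replicate 3. With the replicate number as a block (replicate block) 1 probe was called and no ribonuclease probe passed. The deviations of same-numbered arrays from their group means correlated at -0.15, -0.03 and 0.02, and those of differently numbered arrays at -0.14 to 0.15. With 3 arrays per genotype this shows no sign of pairing but cannot settle whether same-numbered arrays shared more than a number. The methods' t-test called 9 probes after adjustment and 1238 before it.

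The number of listed genes called was 0, and it was 5 with array weights and 0 to 2 with 1 array left out, the 2 being without Chrm3-/- replicate 2. Over the 12 alternatives the log2 fold change ran from 0.74 to 1.25 and 3.95 to 6.79 for the Rnase4 probes and 0.86 to 2.11 for Ang. The direction of these probes could not turn, because all their Chrm3-/- values exceed all their WT values. Ang4, whose groups overlap, ran from 1.83 to 5.60 and kept its direction. Array weights alone brought Ang (adjusted p = 0.0254, limma) past the threshold. Rnase1 ran from -0.39 to 1.86 with 1 array left out, and turned to -0.39 without WT replicate 1 and to -0.11 without Chrm3-/- replicate 2. The cause of the shifts in calls and in Rnase1 was not tested. The fold change of Ang rose to 2.11 with no offset because its WT intensities are below the offset of 50, and 3 arrays per genotype leave wide intervals for Ang4 and Rnase1.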
